A study of Mus musculus with 3 samples.

Results

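The liver of TMX-null mice was compared with and without an LPS/GalN challenge. The measurement was, for each gene, the log2 ratio of the treated TMX-null array minus that of the untreated TMX-null array. Of 13539 named genes with a value on any of the 3 arrays of the series, 10420 had a value on both TMX-null arrays and form the comparison. All livers came from female C57BL/6 mice. The treated TMX-/- liver was taken 24 h after an intraperitoneal injection of 3 ng lipopolysaccharide (LPS) together with 10 mg D-galactosamine (GalN). The untreated TMX-/- liver had neither agent, although its title also carries the 24 h. Each array had 2 channels, with untreated wild-type liver in Cy5 as the common reference and the TMX-null liver in Cy3. The remaining array, of the same form, held treated wild-type liver (genotype wild-type, same agents and time), and its ratios are given beside the others. The labels name the allele only as TMX-/-, and they do not say how it was made, how old the mice were, or whether a channel held 1 mouse or a pool.

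Lipopolysaccharide is a cell wall component of Gram-negative bacteria that macrophages sense through CD14, MD-2 and TLR4, which start NF-kB and interferon signalling. D-galactosamine is metabolised mainly in hepatocytes, where it ties up uridine nucleotides and blocks RNA synthesis, so that hepatocytes become sensitive to killing by TNF. TMX, the product of Tmx1, is a thioredoxin-related protein anchored in the membrane of the endoplasmic reticulum, a member of the protein disulfide isomerase family that forms and rearranges disulfide bonds.

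With 1 array on each side no difference could be tested, so every value describes these arrays, and differences between mice do not enter any error given here. A gene is counted as higher or lower after LPS/GalN where its difference was at least 2-fold, a log2 difference of 1 or more either way. The SD of a single probe, taken from 86 genes that had 2 probes, was 0.66 log2 for the difference, 0.52 for the untreated and 0.79 for the treated array. Tmx1 stood at -2.96 on the untreated and -3.88 on the treated TMX-null array, low on both, and at 0.59 in treated wild-type liver. The labels state neither the numerator nor the base of the ratios. Reading them as sample over reference is likely but rests on Tmx1, and every direction below would turn with the opposite numerator. The log2 scale is an assumption that Tmx1 does not bear on, and read as natural logarithms the values gave 2009 higher and 2078 lower genes.

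The treated TMX-null array differed widely from the untreated one. Of 10420 genes, 1176 (11.3%) were higher and 1254 (12.0%) lower after LPS/GalN, together 23.3%. At 4-fold the counts were 211 and 275, at 8-fold 42 and 61, and at 16-fold 8 and 12. In treated wild-type liver against untreated wild-type liver, 2.80% of the genes with a value on all arrays were higher and 1.75% lower at 2-fold, together 4.55%. The SD over genes was 1.03 on the treated and 0.43 on the untreated TMX-null array, and 0.48 on the wild-type array, so counts at a fixed fold also follow the unequal spread of the arrays.

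Of the 1176 higher genes 947 were themselves at least 2-fold above the reference on the treated array, and of the 1254 lower genes 1007 were at least 2-fold below it. The remaining ones passed 2-fold only together with their untreated value. The 1176 higher genes had a median ratio of 0.01 before and 1.48 after LPS/GalN, and 858 of them lay within 0.5 log2 of the reference in untreated TMX-null liver. The 1254 lower genes had medians of -0.04 and -1.53, and 990 of them lay within 0.5 in the untreated liver. On the untreated array 30 higher genes were at least 2-fold below the reference and 45 lower genes at least 2-fold above it. In treated wild-type liver the higher genes with a value had a median of 0.31 (1158 genes) and the lower genes one of -0.26 (1230 genes).

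**Figure D1:**
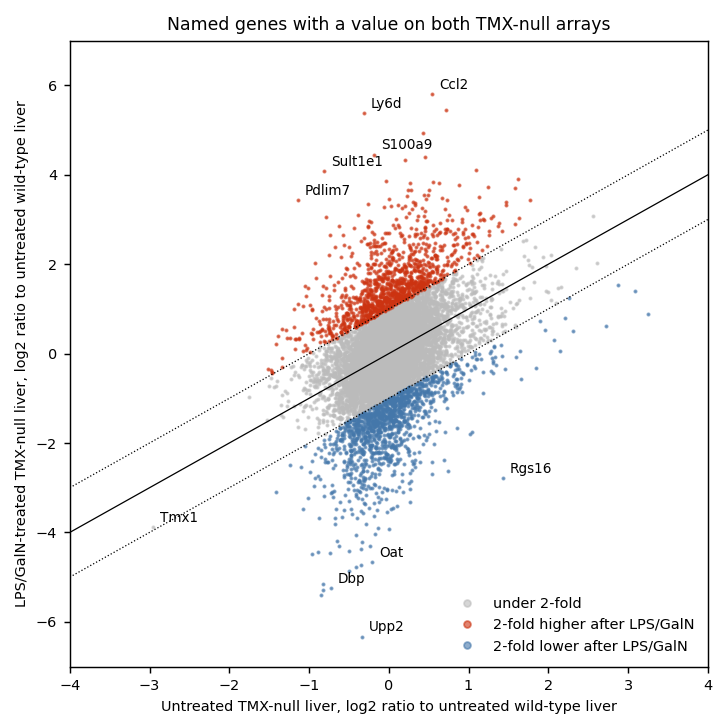
Log2 ratio to untreated wild-type liver of each named gene in untreated (x axis) and LPS/GalN-treated (y axis) TMX-null liver; each point is 1 gene, the solid line is equality and the dotted lines mark a 2-fold difference. The 1176 red and 1254 blue points spread along the y axis while most stay near 0 on the x axis, and Tmx1 lies low on both.

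The highest of all differences was that of Ly6d, a glycolipid-anchored surface protein, which went from -0.32 to 5.38, a 51.9-fold difference. Ccl2, the main chemokine for monocytes, stood at 0.54 before and 5.81 after. Sult1e1, which inactivates estrogens by adding sulfate, stood at -0.81 and 4.07, against -1.21 in treated wild-type liver. The calcium-binding S100a4, S100a9 and S100a11 had differences of 4.73, 4.63 and 3.56. Tnfrsf12a, the receptor for the TNF relative TWEAK, stood at 0.43 and 4.94, and Pdlim7, an adaptor on actin fibres, at -1.14 and 3.43. Cdkn1a, the cell cycle inhibitor, stood at 0.20 before and 4.33 after, and it was also high in treated wild-type liver at 3.18. The remaining genes of the 15 with the highest differences were the stress gene Ier3 (3.94), the lectin Lgals3 (3.89), the hydrolase Abhd2 (3.84), the progesterone-inactivating Akr1c18 (3.60), the clock activator Arntl (3.48) and Tcte3 (3.48). Arntl and Tcte3 were high in treated wild-type liver too, at 2.07 and 2.34.

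At the other end, Upp2, the liver's uridine phosphorylase, stood at -0.34 in untreated and -6.33 in treated TMX-null liver, a 63.7-fold difference and the lowest of all genes. Inmt, an amine methyltransferase, stood at -0.85 and -5.39, Oat, which breaks down ornithine, at -0.21 and -4.67, and Thrsp, a regulator of fat synthesis, at -0.83 and -5.29. Dbp, a transcription factor driven by the clock, stood at -0.73 and -5.25. The steroid dehydrogenase genes Hsd3b6, Hsd3b3 and Hsd3b4 had differences of -4.37, -4.37 and -4.06, but they are near-identical copies that probes may not separate. Car3 (-4.37), Serpina6, which encodes the carrier of corticosteroids (-4.32), Nat8f1 (-4.02), Akr1d1 (-3.92), Keg1 (-3.92) and Cyp7a1 (-3.88) were also among the 15 lowest. Rgs16, a regulator of G protein signalling, stood at 1.43 before and -2.79 after.

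**Figure D2:**
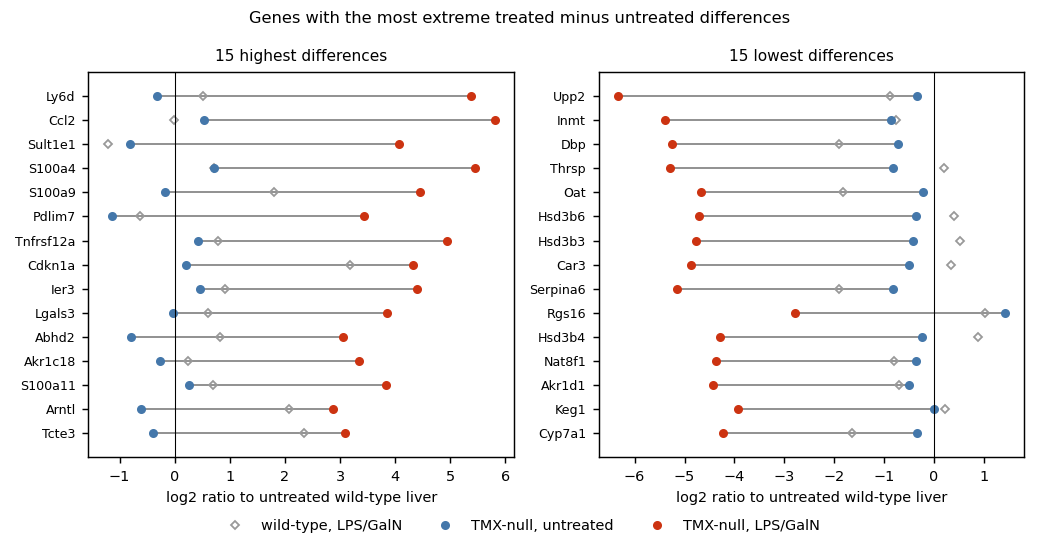
Log2 ratio to untreated wild-type liver of the 15 genes with the highest (left) and the 15 with the lowest (right) treated minus untreated difference; filled points are the TMX-null arrays, open diamonds the treated wild-type array, and lines join the TMX-null arrays. The treated TMX-null value of Ly6d reaches 5.38 and that of Upp2 lies at -6.33, while Cdkn1a, Arntl and Tcte3 are also high in treated wild-type liver.

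Genes were further grouped into 54 lists by pathway or cell type, chosen with earlier results of these data known. The median difference reached 1 or more in 8 lists and -1 or less in 13, against a median of -0.01 over all genes. The lists with high medians held S100 genes, neutrophil markers, actin cytoskeleton, immediate early, interferon-stimulated, hypoxia and glycolysis, adhesion and ribosome biogenesis genes. Some lists share members, so they are not separate groups. S100a8 and S100a9 are in both the S100 and the neutrophil list, and of 6 measured neutrophil markers 3 were higher and 2 lower. Those with low medians held the metabolic, bile acid and secretory genes of hepatocytes. Each list is read below against the 11.3% of all genes that were higher and the 12.0% that were lower.

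**Figure D3:**
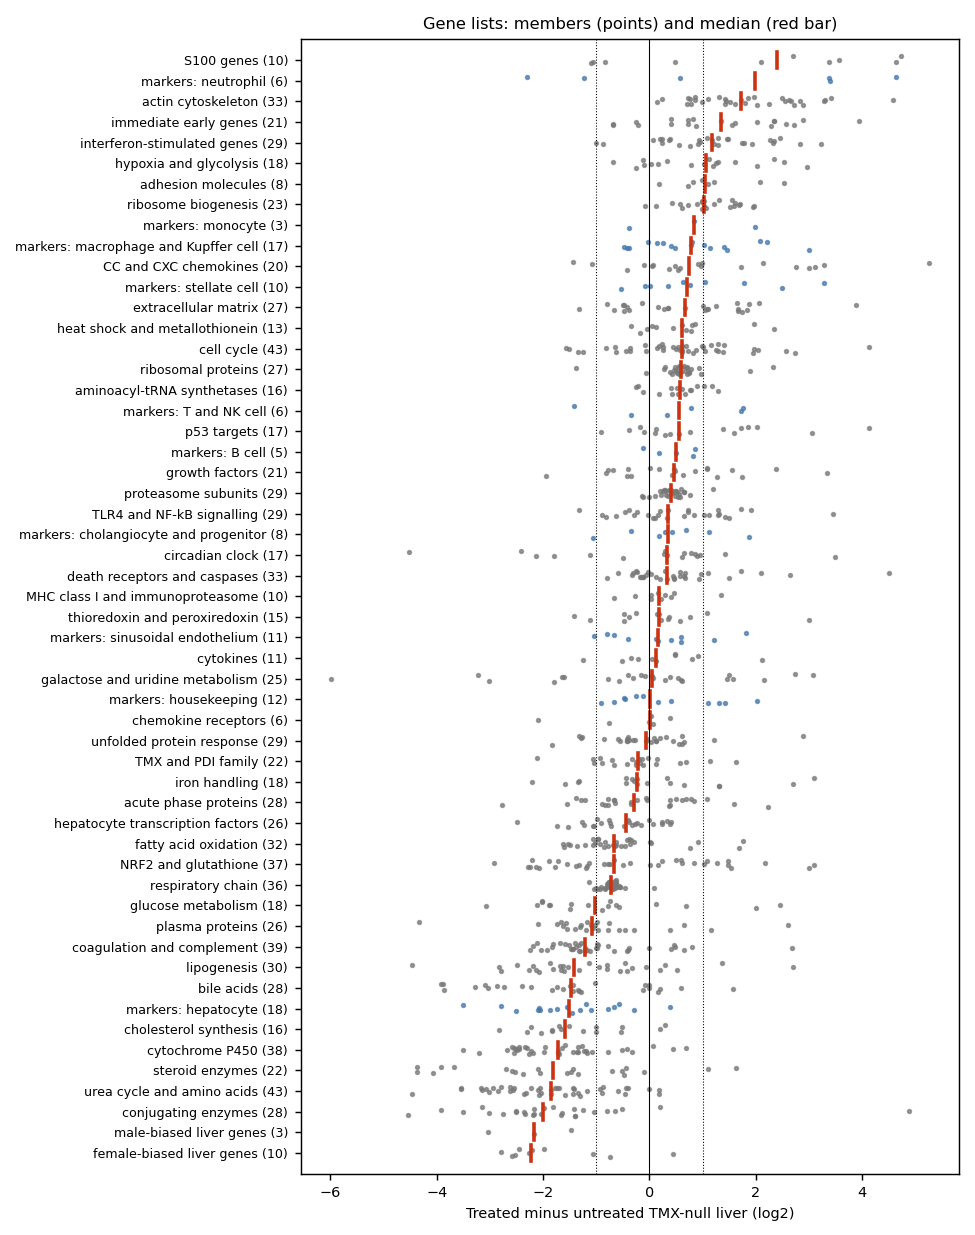
Treated minus untreated difference (log2) of every measured member (points, blue for cell type markers) of 54 gene lists, with the median as a red bar and the number of measured members in brackets; dotted lines mark 2-fold. Actin cytoskeleton genes lie wholly to the right of 0 with a median of 1.72, respiratory chain genes form a narrow band around -0.72, and female-biased liver genes have the lowest median at -2.23.

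The genes that receive LPS were mostly higher in treated TMX-null liver. Cd14, the co-receptor that hands LPS to TLR4, stood at 0.01 before and 3.46 after LPS/GalN, against 0.49 in treated wild-type liver. Ly96, which encodes MD-2, stood at 0.11 and 1.22, and Tlr2, a receptor for bacterial lipopeptides, at 0.20 and 1.93. Tlr4 itself stood at 0.50 and 1.15, a difference of 0.65 that is under 2-fold and about the SD of a single probe. Lbp, the plasma protein that hepatocytes secrete to carry LPS, went the other way, from 0.18 to -1.14.

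Further down the pathway the values were mixed. Of 12 adaptors and kinases, 2 were higher and 0 lower, with a median of 0.09. These were Traf6, a ubiquitin ligase (-1.17 before and 0.32 after), whose difference owed most to its low untreated value, and Ikbkg, the scaffold of the IkB kinase (-0.23 and 1.06). The shared adaptor Myd88 differed by 0.73, and the kinase gene Chuk by -0.89. Among the NF-kB subunits, Nfkb2 differed by 1.42 and Nfkb1 by 1.04, while Rela differed by 0.72 and Rel by -0.62. The inhibitors split as well. Tnip1 (1.92), Nfkbiz (1.31) and Nfkbie (1.28) were higher, whereas Nfkbia differed by 0.33 and Tnfaip3 by -0.46. In all, 10 of 29 members of this pathway (34.5%) were higher and 1 lower, and none of the 27 with a value reached 2-fold in treated wild-type liver.

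Chemokine genes showed some of the widest differences. Of 20 measured CC and CXC chemokines, 7 were higher (35.0%) and 2 lower, with a median of 0.74. The chemokines for monocytes stood highest. Besides Ccl2, these were Ccl6 (0.56 before and 3.84 after), Ccl3 (-0.26 and 2.85), Ccl4 (1.59 and 3.72) and Ccl5 (0.67 and 2.39). Ccl7 (5.96) and Ccl12 (3.71) had a value on the treated TMX-null array and none on the untreated one, so they have no difference. Ccl5, Ccl6 and Ccl7 were also above 2-fold in treated wild-type liver, at 2.08, 1.44 and 2.52, while Ccl2 and Ccl3 stood at -0.01 and -0.20 there. Of the neutrophil chemokines, Cxcl1 stood at 0.33 and 3.33 and Cxcl2 at 3.77 on the treated array alone. Cxcl3 went from -0.14 to -1.57, though these neighbouring genes are similar in sequence and the probes' positions are not given. Cxcl10, an interferon-induced chemokine for T cells, stood at 0.12 and 2.88, while its relatives Cxcl9 and Cxcl11 differed by 0.07 and 0.05. Cxcl12, which stromal cells make at rest, was lower, at -0.18 and -1.26.

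The promoters of Cxcl1 and Cxcl3 are shown because both hold the letters of an NF-kB site close to the start of transcription although their values went opposite ways. Of 10420 measured genes, 8424 matched a promoter of the RefSeq table (assembly GRCm38.p6), and the 250 bases before the start are used. The motif searched, GGG followed by 2 bases of any kind and TTTCC, on either strand, occurred in 1.65% of all promoters and in 3 of the 14 measured chemokine genes that had one (Cxcl1, Cxcl3 and Ccl9). Capitals mark the matches, which begin 89 bases before the start in Cxcl1, with a second one nearby, and 73 bases before it in Cxcl3. Each sequence reads from 5′ to 3′ on the gene's strand.
Cxcl1 (chr5:90890995-90891244, plus strand): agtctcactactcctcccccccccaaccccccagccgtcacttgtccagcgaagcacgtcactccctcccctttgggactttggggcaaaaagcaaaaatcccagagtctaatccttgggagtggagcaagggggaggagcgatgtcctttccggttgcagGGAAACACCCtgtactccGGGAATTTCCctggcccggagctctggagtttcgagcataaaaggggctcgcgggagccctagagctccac
Cxcl3 (chr5:90785851-90786100, plus strand): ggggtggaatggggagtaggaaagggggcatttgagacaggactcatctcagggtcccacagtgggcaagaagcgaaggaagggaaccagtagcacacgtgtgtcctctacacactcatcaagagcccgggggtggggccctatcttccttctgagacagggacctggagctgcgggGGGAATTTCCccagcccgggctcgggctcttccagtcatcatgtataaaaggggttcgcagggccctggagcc
Cxcl1 differed by 3.00, Cxcl3 by -1.43 and Ccl9 by -0.42, so members with a match lay on both sides of 0. The AP-1 motif TGANTCA, present in 7.82% of all promoters, occurred in 2 of the 14 chemokine promoters, those of Cxcl10 and Ccl9. Among all higher genes with a promoter 2.16% held the NF-kB motif, and among all lower genes 2.12%.

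Cytokine genes differed less than chemokine genes. Of 11 measured, 1 was higher and 1 lower, with a median of 0.12, which was -0.05 with the arrays scaled to the same SD. Il1rn, the natural antagonist of interleukin 1, stood at 0.54 and 2.67, and Il18, a cytokine that macrophages store, at 0.02 and -1.24. The interleukin 1 gene Il1b stood at -0.28 and 0.53, and the interferon gene Ifnb1 had a value of 2.03 on the treated array and none on the untreated one. The interferon gamma gene Ifng and the cytokine gene Il23a, also without an untreated value, stood at -0.20 and -0.43. Of 6 chemokine receptors on both TMX-null arrays, 0 were higher and 1 lower, with a median of 0.01. That median was -0.61 with the arrays scaled to the same SD. The lower one was Ccr6, a receptor of lymphocytes, at 2.15 before and 0.06 after. Ccr2 and Ccr1, which monocytes carry, had values of 4.18 and 1.93 on the treated TMX-null array alone, and Cxcr5 one of 0.10. Ccr2 stood at 2.03 in treated wild-type liver. All 8 measured adhesion molecules had differences above 0 and 4 were higher. Vcam1, which holds leukocytes to endothelium, stood at 0.70 and 3.24, the leukocyte integrin Itgb2 at 0.55 and 2.64, and Icam1 at -0.20 and 0.80.

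The small calcium-binding S100 proteins, several of which leukocytes carry in bulk, had the highest median of all lists, 2.40. Of 10 measured, 6 were higher and 2 lower. S100a6 stood at 0.01 and 2.70 and S100a10 at 0.36 and 2.46, while S100a1 and S100a13 differed by -1.07 and -1.10.

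Interferon-stimulated genes were higher as a group. Of 29 measured members, 16 were higher (55.2%) and 0 lower, and 27 lay above 0. Their median ratio was 0.01 before and 1.39 after LPS/GalN in TMX-null liver, and -0.12 in treated wild-type liver. Among the effectors that act on viral RNA and membranes, Oasl1 stood at -0.57 and 2.66, Rsad2 at 0.22 and 3.05, Mx1 at -0.55 and 1.79, and Ifit3 at 0.05 and 2.32. Oas1a started from a higher level, 1.46, and ended at 3.40. Of the sensors and regulators, the brake Usp18 differed by 1.78, the RNA helicase gene Dhx58 by 1.75 and the transcription factor Irf7 by 1.30. Irf1 and Stat2 differed by 0.19 and 0.23, and Iigp1, a gene mainly induced by interferon gamma, stood lowest at -0.99. Antigen presentation genes were near the background, since 1 of 10 members, the peptide transporter gene Tap1 (1.34), was higher, and B2m, the light chain of MHC class I, differed by -0.67.

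The promoters of Rsad2 and Ifit3 are shown for the core of the interferon-stimulated response element, which the factor complex ISGF3 binds. The core searched, GAAA followed by 2 bases of any kind and GAAA, on either strand, occurred in 3.46% of all promoters of this length and in 8 of the 23 measured interferon-stimulated genes that had one. Capitals mark the matches, 1 in Rsad2 and 2 in Ifit3, all on the opposite strand and so written in reverse complement.
Rsad2 (chr12:26456453-26456702, minus strand): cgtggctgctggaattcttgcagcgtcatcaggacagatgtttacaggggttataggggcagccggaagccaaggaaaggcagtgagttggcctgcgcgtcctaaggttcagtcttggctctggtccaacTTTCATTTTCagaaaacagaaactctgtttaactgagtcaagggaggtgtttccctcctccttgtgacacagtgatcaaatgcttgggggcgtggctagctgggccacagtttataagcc
Ifit3 (chr19:34583279-34583528, plus strand): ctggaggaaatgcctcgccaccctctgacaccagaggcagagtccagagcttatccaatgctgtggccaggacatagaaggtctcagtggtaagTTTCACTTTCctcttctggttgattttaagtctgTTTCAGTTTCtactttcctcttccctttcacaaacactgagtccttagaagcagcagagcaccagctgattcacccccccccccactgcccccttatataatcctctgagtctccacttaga
Members with a match were Gbp2 (2.47), Oas1a (1.93) and Irgm1 (0.93) besides Rsad2 (2.83) and Ifit3 (2.27), but also Bst2 (0.23), Stat2 (0.23) and Irf2 (-0.86). A match therefore went with differences between -0.86 and 2.83, and it was seen in 3.35% of all higher and 3.33% of all lower genes.

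**Figure D4:**
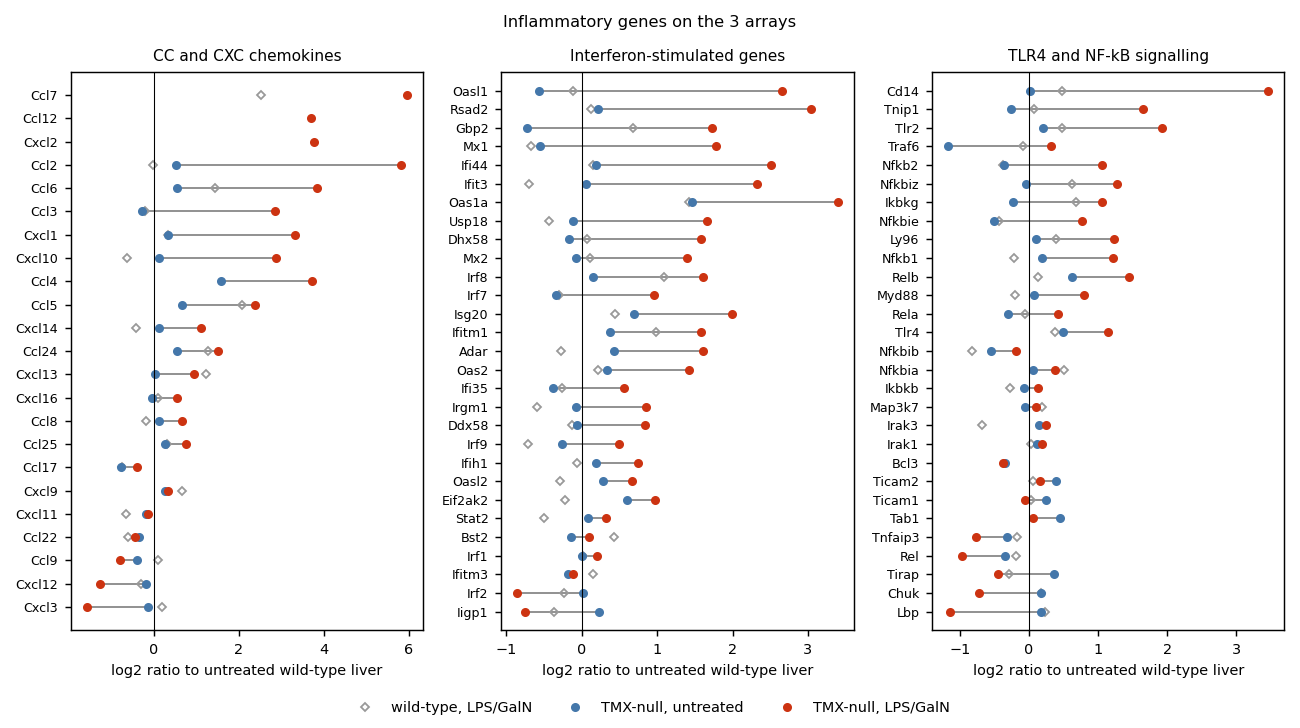
Log2 ratio to untreated wild-type liver of chemokine (left), interferon-stimulated (middle) and LPS and NF-kB signalling genes (right); filled points are the untreated (blue) and treated (red) TMX-null arrays, open diamonds the treated wild-type array, and genes without a line had no untreated value. Ccl2 spans 0.54 to 5.81 and Cd14 spans 0.01 to 3.46, while Lbp and Cxcl3 run the other way.

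Markers of leukocytes that could have entered the liver were unevenly higher. In whole liver, fewer cells of a type and less RNA per cell cannot be told apart, and the table holds ratios without levels, so no marker can be called absent. Of 6 neutrophil markers on both arrays, S100a9, S100a8 (0.28 and 3.67) and the receptor gene Csf3r (-0.74 and 2.66) were higher. Ly6g, which defines neutrophils in the mouse, was lower (-0.19 and -2.50), as was Fpr1 (0.63 and -0.60). Of 3 monocyte markers on both arrays, Plac8 (0.17 and 2.16) was higher and 0 were lower. Their median difference was 0.84, and Fn1 stood lowest at -0.38. Among those valued on the treated TMX-null array alone, Chil3 had the highest ratio of any such gene, 8.11, beside Itgam at 2.55. Of all 1329 genes valued on that array alone 77.6% were positive and 472 were at or above 2-fold.

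Macrophage markers had already been above the reference before treatment. Their median was 0.79 in untreated TMX-null, 1.45 in treated TMX-null and 1.16 in treated wild-type liver, and 7 of 17 were higher after LPS/GalN with 0 lower. The median difference of the macrophage markers was 0.77, and -0.28 with the arrays scaled to the same SD. The scavenger receptor gene Marco stood at 1.10 and 4.10, Cd68 at 0.59 and 2.80, and Msr1 at 0.12 and 2.20. Clec4f stood at 0.50 and 0.03, Timd4 at 0.79 and 1.04 and Vsig4 at 1.30 and 1.45, all differing by less than 2-fold. The list does not separate resident Kupffer cells from other macrophages, so no contrast between them is read from these members. Of 6 T and NK cell markers, Gzma (0.64 and 2.40) and Ccl5 were higher and Nkg7 (2.21 and 0.79) lower, and none of the 5 B cell markers reached 2-fold. The median difference of the T and NK cell markers likewise went from 0.56 to -0.39 with that scaling. The part that infiltrating cells had in the inflammatory values was not tested.

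Markers of other liver cells differed by cell type. Of 10 stellate cell genes 4 were higher and 0 lower, with a median of 0.70. The higher ones were Acta2 (0.02 and 3.31), Tagln (0.49 and 2.98), Rgs5 (0.46 and 2.24) and Col3a1 (0.13 and 1.18). Reln, Colec11 and Ecm1 differed by -0.09, -0.53 and 0.00, and Des had a value of 1.82 on the treated TMX-null array alone. Of 11 markers of sinusoidal endothelium, Lyve1 (1.82) and Pecam1 (1.22) were higher (18.2%) and Dnase1l3 (-1.05) lower (9.09%), with a median of 0.17. Of 8 bile duct and progenitor genes, Spp1 (1.88) and Epcam (1.12) were higher (25.0%), and the ion channel gene Cftr (-1.06) was lower (12.5%). Their median was 0.36. With so few members, the endothelial and bile duct shares lie near the 11.3% higher and 12.0% lower of all genes. Hepatocyte markers were low, with 13 of 18 lower and 0 higher, and a median of -0.42 before and -1.83 after LPS/GalN. Alb, the gene of albumin, stood at -0.73 and -1.84, and at -1.06 in treated wild-type liver. Common reference genes were not uniform either. Gapdh differed by -0.12, Ppia by 0.16 and Hprt by 0.40, but Actb by 2.02 and Gusb by 1.41.

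Acute phase genes of hepatocytes, of which many but not all are induced through interleukin 6, did not stand high as a group. Of 20 measured, 2 were higher and 5 lower, with a median of -0.66. In treated wild-type liver 5 of these 20 were higher and 1 lower at 2-fold, with a median of 0.02. Lcn2, which binds bacterial iron carriers, stood at 0.05 and 2.28, and Orm2, an alpha 1 acid glycoprotein, at 0.39 and 1.97. Saa3 differed by 0.78 in TMX-null liver and stood at 4.22 in treated wild-type liver. The lower members were Saa4 (-2.76), Itih4 (-1.55), the fibrinogen gene Fgg (-1.38), Crp (-1.29) and Orm1 (-1.22). Saa and Orm genes are families of close copies, and probes may not separate them. Of the interleukin 6 signalling genes, the receptor chain Il6st differed by 1.09, Stat3 by -0.05 and its inhibitor Socs3 by -0.34.

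Among genes of cell death, 6 of 33 were higher (18.2%) and 0 lower. Mlkl, the executioner of necroptosis, stood at 0.44 and 3.08, and Casp4, the sensor of LPS inside cells, at 0.48 and 2.59. Pmaip1 (0.83 and 2.56) and Bok (0.12 and 1.62), which promote death through mitochondria, were also higher, as was Traf2 (-0.10 and 1.01). The TNF receptor gene Tnfrsf1a stood at -0.48 and 0.10, Fas at 0.23 and -0.09, and Casp8, which starts apoptosis from these receptors, at 0.54 and 1.11. Ripk1 and Fadd differed by -0.16 and -0.07. Of 17 targets of p53, 7 were higher (41.2%) and 0 lower. They included Cdkn1a, Phlda3 (0.32 and 3.38), Btg2 (-0.55 and 1.47), Plk2 (-0.60 and 1.26) and Mdm2, the ubiquitin ligase of p53 (-0.22 and 1.37). Sesn1 stood lowest, at 0.09 and -0.83.

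Of 43 cell cycle genes 14 were higher (32.6%) and 4 lower. Of 26 genes of DNA replication and its onset, 10 were higher and 2 lower. The helicase genes Mcm6 (-0.03 and 2.71), Mcm3 (0.43 and 2.48), Mcm5 (0.01 and 1.98) and Mcm4 (0.33 and 2.29) stood together with their loader Cdt1 (-0.17 and 2.40). Pcna differed by 1.04, Tk1 by -1.51 and Cdk6 by -1.35. Of 12 genes of mitosis, 3 were higher and 1 lower, with a median of 0.04. Aurka differed by 1.29 and Cdk1 by 1.25, while Mki67 differed by 0.15, Ccnb2 by -0.45 and Cdc20, which triggers the exit from mitosis, by -1.57.

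Immediate early genes were high 24 h after the challenge. Of 21 measured, 11 were higher (52.4%) and 0 lower. Jun stood at -0.46 and 2.25, Atf3 at 0.88 and 3.77, Myc at -1.04 and 1.52, and Klf6 at 0.64 and 2.93. Fos and its relative Fosl1 had values of 2.69 and 4.78 on the treated TMX-null array and none on the untreated one. Another relative, Fosl2, stood at -1.09 on the treated array alone. Egr1 stood at -0.43 and 1.91, below its 2.68 in treated wild-type liver. Junb differed by 0.40, Fosb by -0.24 and Zfp36, which destabilises cytokine messages, by -0.68.

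Of the 54 lists, that of the actin cytoskeleton had the largest share of higher members. All 33 measured members had differences above 0, and 24 of them (72.7%) were higher. The median was 0.05 before, 1.98 after, and 0.26 in treated wild-type liver. The intermediate filament gene Vim stood at 0.42 and 3.25, the annexin Anxa2 at 0.23 and 3.53, the tubulin Tubb6 at 0.24 and 3.66, and the tropomyosin Tpm1 at -0.08 and 2.46. Non-muscle Actb (0.00 and 2.02), Flna (-0.04 and 1.93) and Myh9 (0.06 and 1.86), which cells of every type contain, were higher too. Capzb, which caps actin filaments, stood lowest at 0.14.

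Matrix and growth factor genes were partly higher. Of 27 matrix genes, 13 were higher (48.1%) and 1 lower. Their median difference was 0.67, and -0.10 with the arrays scaled to the same SD. Col4a2 of basement membranes (1.83), Col5a2 (1.65), the fibril gene Fbn1 (1.75) and the crosslinker Tgm2 (2.06) stood above Col1a2 (1.01) and Col6a2 (-0.80). The protease inhibitor Timp1 and the macrophage protease Mmp12 had values of 4.08 and 5.12 on the treated TMX-null array alone, against 1.79 and 2.28 in treated wild-type liver. Vtn, the vitronectin gene of hepatocytes, differed by -1.32. Among growth factors, Ccn2 stood at -0.06 and 3.28, Ccn1 at 0.45 and 2.83, Pdgfa at 0.49 and 2.05, and Hbegf at 0.09 and 1.37, while Hgf differed by 0.86. Of the receptors, Osmr was higher (0.16 and 1.90) and Egfr lower (0.73 and -1.22).

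The metabolic and secreted genes that follow are mostly genes of hepatocytes, and several are also hepatocyte markers. The median difference of these markers was -1.50, and the part that a loss of hepatocytes had in the values below was not tested.

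Uridine metabolism, on which D-galactosamine acts, held the lowest gene of the comparison and several high ones. In the breakdown route, Upp2 was followed by Dpyd, which reduces uracil (-0.04 and -3.26), Dpys (0.17 and -2.86) and Upb1 (-0.25 and -1.86), the next enzymes in order. Upp1, the uridine phosphorylase of most other tissues, went from -0.43 to 1.72. On the side of synthesis, Cad, which carries the opening steps of pyrimidine synthesis, stood at -0.27 and 2.46, and Ctps, which turns UTP into CTP, at 0.30 and 3.38. The enzymes between them, Dhodh and Umps, differed by 0.38 and 0.05. The salvage kinases Uck1 and Uck2 differed by -0.07 and 0.29, and the nucleoside carrier Slc29a1 by -1.65. Another nucleoside carrier, Slc28a2, stood at -0.66 and 0.84. The ratios of Upp2, Dpyd, Cad and Ctps in treated wild-type liver were -0.88, -0.96, 0.49 and 0.21.

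In the galactose route, which turns D-galactosamine into its nucleotide form, 1 of 7 genes was higher and 1 lower. Galm, which converts the sugar ring, stood at -0.29 and -2.09. Galk1, the kinase that starts the route, stood at 0.01 and 0.08, and Galt, which uses UDP-glucose, at -0.10 and -0.89. Ugdh, which draws on UDP-glucose to make UDP-glucuronate, stood at -0.27 and 1.19, and at 1.06 in treated wild-type liver.

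Bile acid genes were lower along synthesis and uptake. Of 11 genes of synthesis, 10 were lower. The rate-limiting enzyme gene Cyp7a1 stood at -0.34 and -4.22, Cyp8b1, which sets cholic acid, at -0.17 and -4.04, and Cyp7b1 and Cyp27a1 of the alternative route differed by -3.04 and -2.39. Acox2 differed by -0.12. All 4 uptake carriers were lower, among them Slc10a1 (-0.19 and -2.92) and Slco1b2 (0.18 and -3.09). The exporters differed among themselves. Abcb11, the bile salt pump of the canaliculus, stood at -0.12 and -2.98, whereas Slc51b, which exports bile acids to the blood, stood at -0.17 and 1.40. Abcc4, also an exporter to the blood, was lower (-1.32). Abcb4 and Abcc2 differed by -0.01 and 0.20. The bile acid receptor gene Nr1h4 stood at -0.55 and -0.56, and its target Nr0b2, a repressor of Cyp7a1, at 0.45 and -1.29.

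**Figure D5:**
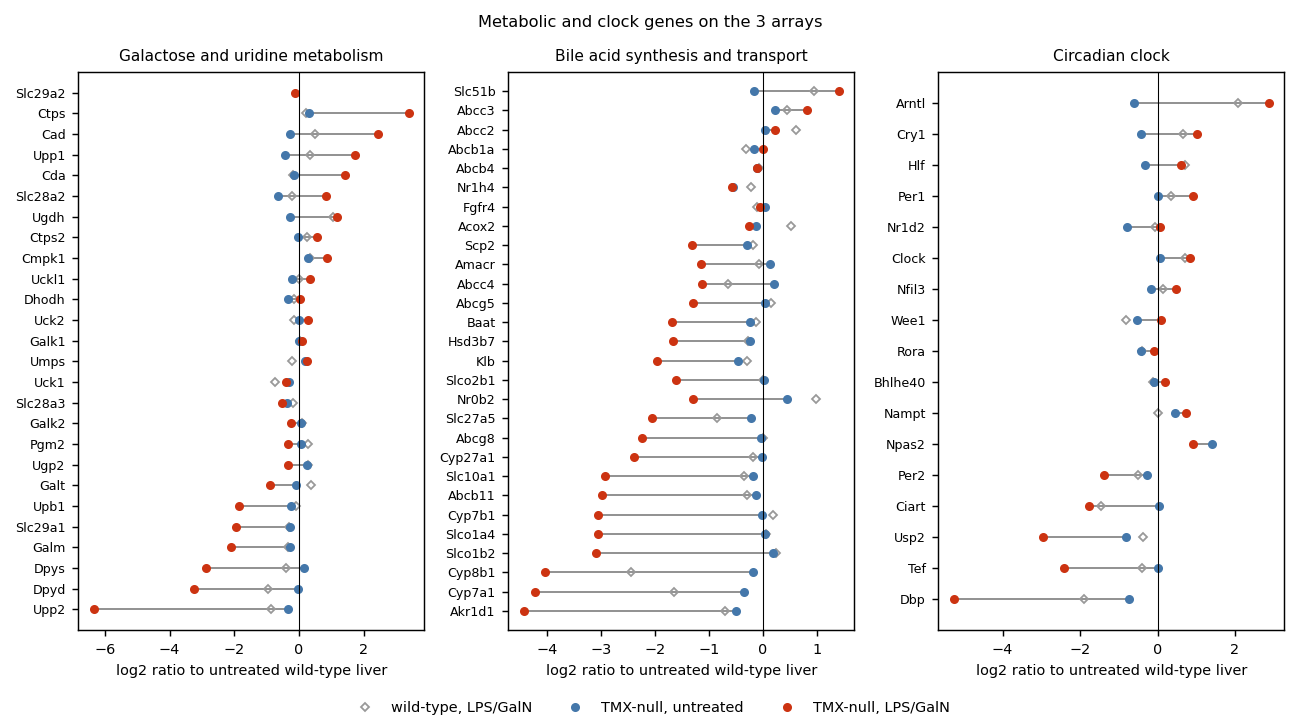
Log2 ratio to untreated wild-type liver of galactose and uridine (left), bile acid (middle) and clock genes (right); filled points are the untreated (blue) and treated (red) TMX-null arrays, and open diamonds the treated wild-type array. Upp2 ends at -6.33 while Ctps ends at 3.38, nearly all genes of bile acid synthesis and uptake point to the left, and Arntl and Dbp part in opposite directions.

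Drug-metabolising genes were broadly lower. Of 38 cytochrome P450 and electron donor genes, 31 were lower (81.6%) and 0 higher. All 5 CYP3 genes were lower, with Cyp3a11, the main drug-oxidising one, at 0.06 and -2.46. In CYP2, 20 of 22 were lower, and Cyp2e1, which oxidises ethanol and acetaminophen, stood lowest, at -0.96 and -4.47. Cyp1a2 stood at -0.25 and -3.46. The fatty acid hydroxylase gene Cyp4a14, a PPARA target, stood at 0.35 and 0.78, and the donor Por differed by -0.51. In treated wild-type liver the median of these genes was -0.08, and 3 of 38 were lower there.

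Of 28 conjugating enzymes and their helpers, 23 were lower and 1 higher. All 9 UGT genes were lower, from Ugt1a6a (-1.42) to Ugt2b1 (-3.50). Of 9 sulfation genes 7 were lower, with Sult1b1 at 0.25 and -2.89 and Sult1a1 at -0.30 and -2.81, and Sult1e1 alone was higher. Among methyl and acyl transferases, Gnmt differed by -1.97 and Nnmt by -2.51. Many genes of the CYP2C, CYP2D, CYP3A and UGT2B families are close copies, so members may share signal. Of 22 steroid-metabolising genes 15 were lower. Hsd11b1, which reactivates corticosterone, differed by -1.55 and Srd5a1 by -2.09, while Srd5a2 (-1.27 and 0.36) and Hsd17b11 (-0.15 and 0.95) were higher.

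Amino acid catabolism was lower along nearly every route. Of 36 genes 29 were lower and 0 higher, with a median of -1.95. In tyrosine breakdown, Tat, Hpd, Hgd and Fah differed by -2.08, -3.55, -3.16 and -2.54. In histidine breakdown, Hal, Uroc1 and Amdhd1 differed by -2.78, -2.37 and -2.85. In methionine and cysteine metabolism, Mat1a, Ahcy, Cbs and Cth differed by -3.02, -1.84, -1.59 and -3.55. In the tryptophan route Haao (-3.07) and Kynu (-2.56) were lower, and Tdo2, its first enzyme, differed by -0.89. Glud1, Gpt2 and Gldc differed by -0.01, 0.19 and 0.18. Glul, the glutamine synthetase of the hepatocytes around the central vein, stood at 1.18 before and -0.88 after, and at 1.15 in treated wild-type liver.

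In the urea cycle 4 of 7 genes were lower. Asl stood at -0.56 and -3.50, Cps1 at -0.29 and -2.39, Otc at -0.20 and -2.22, and Arg1 at -0.22 and -1.40. The mitochondrial carriers Slc25a15 and Slc25a13 and the activator enzyme Nags differed by -0.58, -0.93 and -0.41. The CCAAT box occurred in 18 of the 34 urea cycle and amino acid genes with a promoter. It was in 37.5% of all promoters, 39.9% of those of measured genes, 45.7% of those of all lower and 36.9% of those of all higher genes.

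Genes of fat synthesis were mostly lower, while a pair of lipid droplet genes was higher. Of 30 lipogenic genes 17 were lower and 2 higher. Fasn, the fatty acid synthase, stood at -0.66 and -3.48, Acss2 at -0.88 and -3.67, Elovl6 at -0.12 and -2.60 and Scd1 at -0.21 and -2.28. Their regulators Srebf1 (-1.63) and Mlxipl (-1.81) were lower as well. The lipid droplet genes Plin2 (0.37 and 3.07) and Cidec (0.10 and 1.46) were the higher members, and their relatives Plin5 and Cideb differed by -0.34 and -1.86. In treated wild-type liver the median of these genes was -0.03, with Fasn at 0.22 and Plin2 at 0.00.

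Cholesterol synthesis genes were already low in untreated TMX-null liver, with a median of -0.64, and stood at -2.11 after LPS/GalN and -0.08 in treated wild-type liver. Of 16 measured, 11 were lower and 0 higher. Sc5d stood at -0.39 and -3.22, Idi1 at -0.71 and -2.94 and Fdft1 at -0.98 and -2.64. Their activator Srebf2 stood at -0.63 and -0.44.

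Fatty acid oxidation differed less. Of 32 genes 9 were lower and 2 higher, with a median of -0.67. Echs1 (-1.49), Acaa1a (-1.60) and the uptake gene Slc27a2 (-1.62) were lower, while Cpt1a and Hadha, which enter and carry out the mitochondrial cycle, differed by -0.41 and 0.03. Ppara, the receptor that drives these genes, stood at 1.09 and 0.03. On the high side stood the peroxisomal Ehhadh (0.39 and 2.08) and the scavenger receptor gene Cd36 (0.17 and 1.92).

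Of 6 genes of glucose production 4 were lower, and of 12 glycolytic genes 6 were higher. Pck1 stood at 0.36 and -1.50, the glucose 6-phosphate carrier Slc37a4 at 0.50 and -1.40, the glycogen synthase gene Gys2 at 0.70 and -2.37 and the hepatocyte glucose carrier Slc2a2 at 0.05 and -2.08. Pdk4, which closes pyruvate off from oxidation, went from -0.54 to 1.93, and Igfbp1 from 1.14 to 3.15. Among glycolysis and hypoxia genes 10 of 18 were higher and 0 lower. Slc2a1, the glucose carrier of most other cells, stood at -0.93 and 2.04, Hk2 at -0.06 and 2.48 and Pkm at 0.92 and 2.95. Hif1a differed by 1.25 and its target Adm by 2.35, but Vegfa by -0.68, Pgk1 by -0.26 and Ldha by 0.16.

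Secreted liver proteins were lower. Of 39 coagulation and complement genes 23 were lower and 1 higher. F13b (-2.18), F7 (-2.12), Serpind1 (-2.04) and F10 (-1.93) stood low among coagulation factors, and F2, the prothrombin gene, stood at -0.16 and -1.47. C8b, C6 and C9 of the membrane attack complex differed by -2.24, -1.82 and -1.68, while C1qa, C1qb and C1qc, which macrophages make, differed by 0.40, 0.80 and 0.49. Plaur, the urokinase receptor of leukocytes, was higher (-0.08 and 2.59). Of 26 apolipoproteins and carriers 15 were lower, among them Apoa2 (-1.42 and -3.09) and Ttr (-0.80 and -2.35). Apoa4 (-0.20 and 2.40) and Apoc2 (0.25 and 1.41) were higher.

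Transcription factors and receptors that shape hepatocytes were partly lower. Of 26 measured, 7 were lower and 0 higher, with a median of -0.45. Hnf4a stood at 0.04 and -0.28 and Foxa2 at -0.30 and -0.46. Cebpa (-0.65 and -1.89), Rxra (-0.03 and -1.56) and the growth hormone receptor Ghr (-0.45 and -2.94) were lower. Of the nuclear receptors that sense drugs, Nr1i2 and Nr1i3 differed by -0.41 and -0.38. Genes biased to female liver, which follow growth hormone, were low, with 8 of 10 lower and a median of -0.34 before and -2.48 after. The list shares members with the cytochrome P450 list. Cyp2b9 stood at -0.25 and -2.50 and Hao2 at -0.49 and -3.29. Of these 10, 7 were lower in treated wild-type liver. Of genes biased to male liver, 3 of 3 measured were lower, with a median difference of -2.17 against -2.23 for the female-biased genes.

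Of the other TMX genes, Tmx2 stood at -0.11 and 0.02 and Tmx3 at -0.12 and -0.14, both near the reference. Of 12 disulfide isomerase genes, Dnajc10, a reductase that helps degrade misfolded proteins, was higher (1.62), and none was lower. Their median difference was -0.25, and 10 of the 12 lay below 0. P4hb and Pdia4 differed by -0.71 and -0.66 and Pdia3 by -0.25. Among the oxidases, the peroxidase gene Gpx8 was higher (1.15), and Ero1b (-1.06), Prdx4 (-1.05) and Vkorc1, which recycles vitamin K (-2.12), were lower. In the unfolded protein response 2 of 29 genes were higher and 4 lower. Hspa5, the chaperone BiP, stood at 0.36 and 0.91, Xbp1 at -0.01 and -0.41 and Ddit3 at 0.28 and 0.90. Herpud1 (0.41 and -1.41), Chac1 (0.90 and -0.42), Sel1l (-0.49 and -1.78) and Edem1 (-0.04 and -1.31) were the lower members, and Atf3 and Creld2 (1.22) the higher ones. Herpud1 stood at 0.90 in treated wild-type liver.

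Antioxidant genes divided by function. Of 13 NRF2 targets 7 were higher and 2 lower. Hmox1, which breaks down heme, stood at 0.21 and 3.31, the sulfiredoxin Srxn1 at -0.56 and 2.44, Gsr at -0.22 and 1.31, and Nqo1 at -0.42 and 0.60. Of 19 glutathione transferases 11 were lower, from Gstm1 (-1.14) to Gsta3 (-2.93), and Gsta2 (0.84 and 2.31) was higher. The members of each class are close copies. The superoxide dismutase gene Sod1 stood at -0.13 and -1.32, and the plasma peroxidase Gpx3 at -0.17 and 2.00. Of 15 thioredoxin and peroxiredoxin genes 2 were higher and 2 lower (13.3% each), near the 11.3% and 12.0% of all genes. Txnrd1, the thioredoxin reductase, differed by 1.08, Txn1 by 0.19, and Txnip, which inhibits thioredoxin, by -1.41. Of 13 heat shock and metallothionein genes 2 were higher (15.4%) and 0 lower. These were the chaperones Hspb1 (-0.37 and 1.97) and Hsp90aa1 (0.10 and 2.07), and both were high in treated wild-type liver, at 1.56 and 1.84.

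Some groups differed little but mostly in one direction. Of 36 respiratory chain genes 35 lay below 0 and 3 were lower, with a median of -0.72. Ndufs1 of complex I stood at 0.02 and -0.82, Sdhb at -0.04 and -1.18 and Atp5a1 at 0.26 and -0.49, and cytochrome c, Cycs, stood apart at 0.71 and 0.79. Of 29 proteasome subunits 26 lay above 0 with a median of 0.42, and 1 of them, Psmd8 (1.20), was higher. Of 27 ribosomal proteins 25 lay above 0 with a median of 0.59, and Rpl38 (-1.04 and 1.28) and Rps24 (-0.58 and 1.31) were higher and Rpl22 (-1.38) lower. Ribosome biogenesis was higher, with 13 of 23 genes past 2-fold (56.5%) and 0 lower. The nucleolar proteins Npm1 and Ncl stood at 0.28 and 1.97 and at 0.32 and 1.93, and Rrp12 at -0.33 and 1.62.

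Clock genes differed in opposite senses around Arntl. Of 17 measured, 2 were higher (11.8%) and 5 lower (29.4%). Arntl, which encodes the activator BMAL1, differed by 3.48, and its partner Clock by 0.79, while the activator Npas2 differed by -0.50. Of 7 output genes, Dbp, Tef (0.01 and -2.40) and Usp2 (-0.81 and -2.95) were lower. Another 4 lay above 0, with Hlf highest at 0.94, and the median of the output genes was 0.27. Lower repressors were Ciart (0.04 and -1.77) and Per2 (-0.28 and -1.39). Cry1 was higher (-0.42 and 1.01), Per1 stood at 0.01 and 0.90, and Nr1d2 at -0.79 and 0.07. Arntl stood at 2.07, Dbp at -1.90 and Ciart at -1.46 in treated wild-type liver. The hour of day at which livers were taken is not given in the labels, so time of day and treatment cannot be told apart for these genes.

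The promoters of Cry1 and Ciart are shown because both hold the E-box CACGTG that BMAL1 and CLOCK bind, while their differences were 1.42 and -1.80. This motif occurred in 6.86% of all promoters, in 9.59% of those of measured genes and in 4 of the 14 measured clock genes with a promoter. These 4 were Per1, Cry1, Ciart and Tef. Among all higher genes with a promoter 9.73% held the E-box, and among all lower genes 7.97%. Capitals mark 1 match in Cry1, 60 bases before the start, and 3 in Ciart.
Cry1 (chr10:85185055-85185304, minus strand): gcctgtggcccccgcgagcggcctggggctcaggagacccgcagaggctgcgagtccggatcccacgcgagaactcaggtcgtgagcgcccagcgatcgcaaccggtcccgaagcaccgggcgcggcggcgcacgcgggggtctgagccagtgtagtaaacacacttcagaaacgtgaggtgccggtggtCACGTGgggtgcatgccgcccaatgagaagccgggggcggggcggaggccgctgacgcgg
Ciart (chr3:95882229-95882478, minus strand): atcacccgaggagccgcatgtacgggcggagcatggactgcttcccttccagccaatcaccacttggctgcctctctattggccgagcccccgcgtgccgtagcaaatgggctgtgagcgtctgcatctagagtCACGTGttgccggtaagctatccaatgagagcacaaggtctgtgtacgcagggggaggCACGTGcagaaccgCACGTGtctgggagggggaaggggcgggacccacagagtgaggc
The D-box TTANGTAA, which DBP and its relatives bind, was in 2.44% of all promoters and in 0 of these 14.

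Of 18 iron genes 4 were higher and 4 lower, and their median of -0.24 was 0.17 with the arrays scaled to the same SD. Tfr2, Hjv and Tmprss6, which regulate hepcidin in hepatocytes, differed by -1.59, -1.35 and -1.31. Hmox1, Tfrc (1.32), Slc39a14 (1.31) and the BMP target Id1 (0.13 and 2.83) were higher. The hepcidin gene Hamp stood at -1.27 before and -0.88 after in TMX-null liver, against -3.99 in treated wild-type liver. Its close copy Hamp2 stood at -1.02 and -3.23, against -3.80, and the probes may not separate the copies.

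Genes with a value on the treated or untreated TMX-null array alone have no difference and are described apart. On the treated array alone 1329 genes had a value, of which 77.6% were positive, with a median ratio of 0.67 and 472 at or above 2-fold. Besides Chil3, Ccl7, Mmp12 and Fosl1, the 10 highest held Smpd3 (5.14), Elovl7 (4.81), Emb (4.71), Cgref1 (4.69), Bmp8b (4.68) and Afp, the fetal albumin (4.62). Gbx2 was lowest at -2.06. On the untreated array alone 925 genes had a value, of which 79.0% were positive with a median of 0.61, and the secreted phospholipase Pla2g2a (3.10) and the carbonic anhydrase Car13 (3.01) were the highest. The rule that left cells blank is unknown, so a missing value is not read as a missing transcript.

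The repeat probes limit how single genes should be read. Of 86 genes with 2 probes, both probes were past 2-fold on the same side in 7, 1 probe alone in 31 and neither in 48, and in 0 did the probes pass 2-fold on opposite sides. The sign was shared in 64. The widest gaps were in Fam177a (1.52 and -0.87), Notum (-2.90 and -0.71) and Os9 (-1.44 and 0.69). Table rows without a gene name behaved similarly, with 321 of 3561 higher (9.01%) and 493 lower (13.8%).

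Against treated wild-type liver, some genes had the widest gap between their TMX-null difference and their wild-type ratio. Sult1e1 (4.88 against -1.21), Ccl2 (5.27 against -0.01) and Pdlim7 (4.58 against -0.62) led on one side, with Hamp (0.39 against -3.99), Csf3r (3.40 against -0.30), the chromatin protein gene Hmga1 (3.22 against -0.47) and the laminin gene Lamb3 (3.06 against -0.40) also among the 10 widest. On the other side stood Rgs16 (-4.22 against 1.02), Upp2 (-5.99 against -0.88), Hsd3b4 (-4.06 against 0.88), Car3 (-4.37 against 0.34) and Gm867 (-3.64 against 0.46). The TMX-null side of each pair is a difference of 2 arrays, and the wild-type side is a single array. The wild-type ratio also contains the dye effect of the gene, so the gaps were not tested.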

How the data were processed

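The authors deposited ratios with values above and below 0, taken here to be log2, in 1 table with a column for each of 3 arrays. Not given in the sources used here: base of the logarithm, numerator, image analysis, normalization, and when a cell was left blank. RNA was amplified and coupled to Cy5 or Cy3, per the labels' protocols. Of 23473 rows, 14080 had a value on both TMX-null arrays. The platform annotation of GEO names 1 gene for 16631 rows, more than 1 for 0 rows and no gene for 6842, and 3947 symbols were updated through the RefSeq table of GRCm38.p6.

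Probes of a gene were averaged, and each array was centred on its median over the named genes valued on all 3 arrays (-0.05 for treated wild-type, -0.03 for untreated and -0.07 for treated TMX-null liver). The untreated was subtracted from the treated TMX-null ratio, so that reference and dye effects cancel if the reference RNA was the same. No p-value was computed, since each group has 1 array, and precision is limited by this number of arrays. The table holds no signal or background. Counting was tested on simulated data. Named genes are Tmx1, the 15 highest and 15 lowest differences, list members chosen by role or extreme value, the extremes among genes of 1 array, the 10 widest gaps to wild-type on each side, genes with repeat probes and genes with printed promoters. The members and lists were chosen with earlier results of these data known, and Fam177a, Notum and Os9 were named after their values were seen. Alternatives covered centring, scaling, genes taken, probes, threshold, log base and comparison array. Promoters are RefSeq's, and motifs were searched on both strands. Python 3.11.15, pandas 2.3.3, numpy 2.4.6 and matplotlib 3.10.9 were used.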

Additional observations from a re-analysis of the deposited data

Results flagged for a closer look

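In 9 of the genes in the lists or among the extremes, the difference between the TMX-null arrays and the ratio of treated wild-type liver were both at least 2-fold and had opposite signs. Over all genes 27 did so. The TMX-null difference has 1 array a side and the wild-type ratio comes from 1 array, and the difference between the genotypes was not tested.

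Sult1e1, the estrogen sulfotransferase, differed by 4.88 in TMX-null liver and stood at -1.21 in treated wild-type liver. Rrp9, of ribosome biogenesis, differed by 1.02 and stood at -1.35. The other 7 genes were lower in TMX-null liver and above the reference in wild-type liver. Rgs16 differed by -4.22 and stood at 1.02, and Ugt2b37, a glucuronosyltransferase, differed by -2.17 and stood at 1.28. Glul, the glutamine synthetase, differed by -2.06 and stood at 1.15. Lpin1, a phosphatidate phosphatase of fat synthesis, differed by -1.67 and stood at 1.30. Hsd3b5, biased to male liver, differed by -1.48 and stood at 2.04. Nkg7, a gene of cytotoxic lymphocytes, differed by -1.42 and stood at 1.60. Cyp2d10 differed by -1.35 and stood at 1.36. The untreated TMX-null ratio was itself above 0 in 6 of these 7 genes, at 1.43 for Rgs16, 1.18 for Glul, 0.88 for Lpin1, 2.21 for Nkg7, 0.35 for Cyp2d10 and 0.13 for Ugt2b37, and at -0.63 for Hsd3b5.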

How the results depend on the processing

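No paired analysis was possible because each group has 1 array, and leaving out an array leaves no comparison. The counts of 1176 higher and 1254 lower genes stayed within 1.5 times without centring, with other centring, with arrays scaled to the same SD (858 and 1042), over genes of all 3 arrays, with 1 probe a gene, over all table rows, and against treated wild-type liver. Against untreated wild-type liver 1919 genes were higher and 1370 lower, but over 11755 genes, which include those without an untreated TMX-null value. Over the 10420 genes of the comparison, 1442 were at least 2-fold above untreated wild-type liver and 1351 at least 2-fold below it. At 1.5-fold 2395 were higher and 2469 lower, and at 4-fold 211 and 275. Read as natural logarithms the values gave 2009 and 2078. Past 2 SDs of a single probe, a threshold chosen after seeing the data, 669 were higher and 804 lower. Scaling to the same SD moved 43 of 54 list medians. Of the 21 medians past 2-fold 0 changed sign under the alternatives run. Of all 54, 11 changed sign under at least 1 alternative, 6 of them under that scaling, among them extracellular matrix (0.67 to -0.10) and macrophage markers (0.77 to -0.28). Ccr6 (0.062) and Nkg7 (0.79) changed sign against untreated wild-type liver, and Dnase1l3 (0.11) and Hamp2 (0.58) against treated wild-type liver. The cause was not tested beyond the change of the array subtracted.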
